A study of Saccharomyces cerevisiae with 6 samples.

Results

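*APE2* (YKL157W) is a yeast gene with 1 intron, and the data here are its splice junctions in 6 mRNA libraries. Its members are all junctions that the tables assign to *APE2*, 17 of 5274 over all genes, and *APE2* is 1 of 282 genes listed. The 17 are the annotated junction, 10 junctions that join the annotated 5′ splice site (5′SS) to another 3′ splice site (3′SS), 1 with another 5′SS and 5 with both sites altered. The libraries came from BY4741 cells grown in YPD to mid-log phase, 3 from *prp18Δupf1Δ* cells (*prp18Δ::kanMX6 upf1Δ::HIS3MX6*) and 3 from *upf1Δ* cells (*upf1Δ::HIS3MX6*). Both strains thus lack Upf1p, and no strain with Upf1p is among these samples. *APE2* was picked because its junctions in these same libraries showed many competing 3′SS. Its values are therefore a description, given per library, as the mean and as whether the libraries of the strains overlap, with no test between the strains.

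In the second step of splicing, the spliceosome joins the end of exon 1 to the end of the intron, usually at a YAG trinucleotide (Y for C or U) some way downstream of the branchpoint adenosine. Prp18p is a factor of the second step, and it acts near the active site together with Slu7p. Upf1p is the helicase of nonsense-mediated decay (NMD), which removes mRNAs with an early stop codon, so spliced products that NMD would otherwise remove can be counted in cells without it. *APE2* codes for aminopeptidase yscII, a zinc metallopeptidase that removes amino acids from the N-terminal end of peptides, and *AAP1* is its paralog.

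The gene lies on the plus strand of chrXI:154991-158232 (R64 build, RefSeq annotation and sequence), with a first coding exon of 281 nt, an intron of 383 nt at chrXI:155272-155654 and a second coding exon of 2578 nt. The branchpoint adenosine is at position 155599, and the annotated CAG ends 55 nt from it. This is a long distance, since the median over 272 introns was 33 nt and 30 introns had a longer one. The region from the branch site into exon 2, chrXI:155594-155664, is shown because it holds every alternative 3′SS described here. Capitals mark the branch sequence, the AAG sites that end 30 and 37 nt from the branchpoint, and the annotated CAG.
branch site to exon 2: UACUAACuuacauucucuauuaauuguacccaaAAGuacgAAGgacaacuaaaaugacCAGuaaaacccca

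The 3′SS that were seen with the annotated 5′SS are named by their trinucleotide and by the distance of its last base from the branchpoint. Each is printed with 10 nt on either side and the 3′SS in capitals, to show how little the sites other than the AAG pair look like the annotated site.
UAU at 14: uuacauucucUAUuaauuguacc
AAU at 18: auucucuauuAAUuguacccaaa
UUG at 20: ucucuauuaaUUGuacccaaaag
UAC at 23: cuauuaauugUACccaaaaguac
AAG at 30: uuguacccaaAAGuacgaaggac
AAG at 37: caaaaguacgAAGgacaacuaaa
AGG at 38: aaaaguacgaAGGacaacuaaaa
AUG at 50: gacaacuaaaAUGaccaguaaaa
CAG at 55: cuaaaaugacCAGuaaaacccca

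The *prp18Δupf1Δ* libraries held 791819 to 1250953 reads at annotated junctions of all genes, and the *upf1Δ* libraries 1347936 to 1502384. The *APE2* intron itself had 251 to 271 spliced reads per *prp18Δupf1Δ* library and 134 to 151 per *upf1Δ* library, so a site used in 1% of splicing events was expected in only a few reads. In both strains, replicate 1 differed most from the other libraries in its annotated counts over all introns, with a chi-square per degree of freedom of 112 and 114 in *prp18Δupf1Δ* (5.74 between the others) and of 111 and 121 in *upf1Δ* (14.2 between the others). None of the 142 stretches of 30 nt in the 100 nt on either side of the intron occurred elsewhere in R64. Intervals below are 95% intervals and cover counting error only.

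Of the 10 alternative 3′SS, 8 passed the filters on overhangs and mismatches and the minimum of 6 gapped reads over the 6 libraries. All 8 lay between the branchpoint and the annotated 3′SS. Just inside the minimum were AAU at 18 and UAC at 23 with 10 gapped reads each. Just outside were UGU at 21, with 2 gapped reads, and ACG at 34, with 3 gapped reads whose longest perfect downstream overhang was 27 bp. The 8 sites were seen in 8, 6 and 8 of their number in the *prp18Δupf1Δ* libraries, against 5, 4 and 6 in the *upf1Δ* libraries. Thinned to 134 spliced reads per library, 7.31, 5.67 and 6.71 sites would be seen in *prp18Δupf1Δ* and 5.00, 3.99 and 5.76 in *upf1Δ*. The libraries overlapped in both counts. By replicate number, a pairing that the labels do not state, *prp18Δupf1Δ* had more sites, by 3, 2 and 2 seen and by 2.31, 1.68 and 0.944 thinned. Sites UUG, AGG and AUG passed the minimum only through *prp18Δupf1Δ* reads, so both counts lean towards that strain.

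Alternative 3′SS took a large share of *APE2* splicing in both strains. The 8 sites together had 114, 113 and 116 reads in *prp18Δupf1Δ*, beside 152, 158 and 135 reads of the annotated junction. In *upf1Δ* they had 45, 52 and 53 reads, beside 89, 83 and 98. Their share of spliced reads was 42.9% (95% Wilson interval 37.1 to 48.9%), 41.7% (36.0 to 47.6%) and 46.2% (40.2 to 52.4%) in *prp18Δupf1Δ*, against 33.6% (26.1 to 41.9%), 38.5% (30.7 to 46.9%) and 35.1% (27.9 to 43.0%) in *upf1Δ*. Every *prp18Δupf1Δ* library lay above every *upf1Δ* library, with means of 43.6 ± 2.35% and 35.7 ± 2.53% (SD, n = 3 each), a difference of 7.86 points, although the intervals of single libraries overlapped. The same direction without overlap was found in 50.5% of 206 introns, and nothing is read from it here because *APE2* was picked on this contrast. The share also includes UUG, AGG and AUG, so the minimum of reads set its difference in part. Over annotated plus unspliced reads, in place of spliced reads, the 8 sites came to 21.6 ± 2.91% in *prp18Δupf1Δ* and 20.4 ± 2.84% in *upf1Δ*, and the libraries overlapped.

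**Figure D1:**
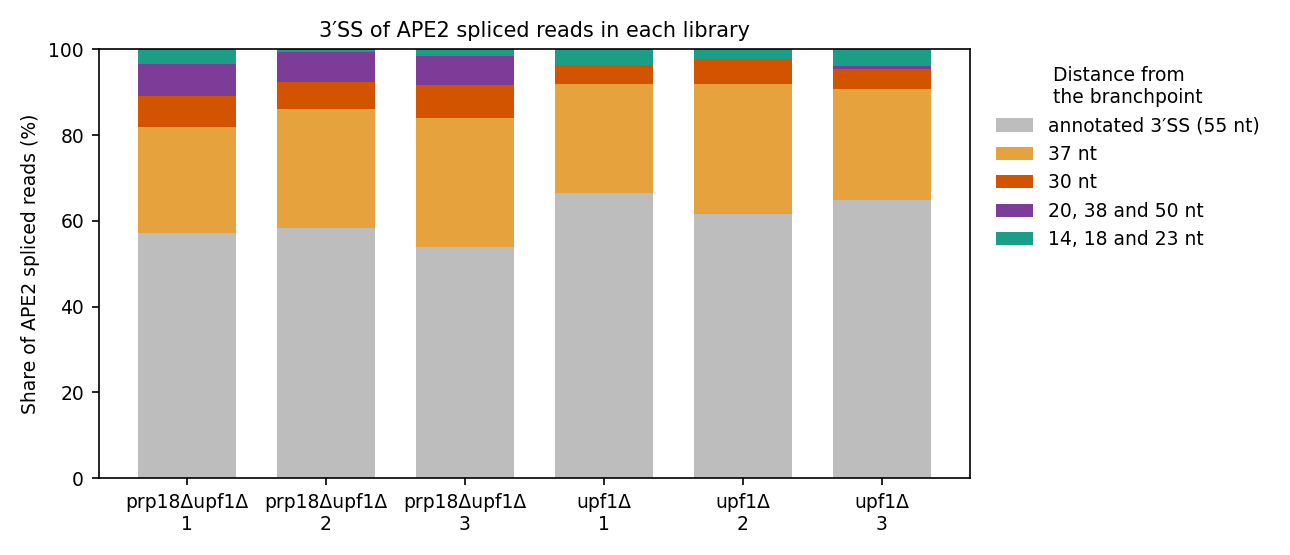
Share of *APE2* spliced reads (%, vertical axis) that used each 3′SS or group of 3′SS in each of the 6 libraries, with colours for the distance of the sites from the branchpoint. The site at 37 nt takes 24.8 to 30.3% in *prp18Δupf1Δ* and 25.4 to 30.4% in *upf1Δ*, while the group at 20, 38 and 50 nt takes 6.77 to 7.52% in *prp18Δupf1Δ* and 0 to 0.662% in *upf1Δ*.

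Most alternative reads used the AAG pair, the only AG-ending sites between branchpoint and annotated 3′SS. AAG at 37 was the leading site, with 66, 75 and 76 reads in *prp18Δupf1Δ*, against 34, 41 and 39 in *upf1Δ*. It took 27.6 ± 2.73% of spliced reads in *prp18Δupf1Δ* and 27.2 ± 2.76% in *upf1Δ* (n = 3 each), and the libraries overlapped. Its fraction of annotated splicing (FAnS), the reads of a site over those of the annotated junction, was 43.4%, 47.5% and 56.3% in *prp18Δupf1Δ*, against 38.2%, 49.4% and 39.8% in *upf1Δ*, which overlapped as well. AAG at 30 had 19, 17 and 19 reads in *prp18Δupf1Δ* and 6, 8 and 7 in *upf1Δ*. Its FAnS was 12.4 ± 1.66% in *prp18Δupf1Δ* and 7.84 ± 1.57% in *upf1Δ*, 1.59 times higher and above in each library, while the counting interval of the ratio of pooled reads ran from 0.946 to 2.77. Together the AAG pair took 34.6 ± 3.00% of spliced reads in *prp18Δupf1Δ* and 32.2 ± 3.56% in *upf1Δ*, with overlapping libraries.

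The sites with at most 1 read over the *upf1Δ* libraries end in G with no A before it (BG sites, where B is C, G or U). All 3 passed the minimum of 6 gapped reads only through the *prp18Δupf1Δ* libraries. The filter thus set the contrast below in part, and its values are a description. UUG at 20 had 8, 8 and 10 reads in *prp18Δupf1Δ* and none in any *upf1Δ* library. Its FAnS was 5.91 ± 1.30% in *prp18Δupf1Δ*. With *upf1Δ* set to a floor of 3 reads over its 3 libraries (1.11% FAnS), the pooled ratio was 5.26. Without the floor, the counting interval of the pooled ratio began lower, at 3.98. AUG at 50, only 5 nt upstream of the annotated site, likewise had 5, 7 and 3 reads in *prp18Δupf1Δ* and none in *upf1Δ*. Its FAnS was 3.31 ± 1.10%, the pooled ratio by the same floor was 3.03, and the counting interval without the floor began at 2.18. AGG at 38 had 7, 4 and 4 reads in *prp18Δupf1Δ* and 0, 0 and 1 in *upf1Δ*. Its FAnS was 3.37 ± 1.09% in *prp18Δupf1Δ* and 0.34 ± 0.589% in *upf1Δ*, a pooled ratio of 9.10 with a counting interval of 1.40 to 383, so the ratios of these BG sites have no order. This site lies 1 nt past AAG at 37, and its reads were 10.6%, 5.33% and 5.26% of those at AAG at 37 in *prp18Δupf1Δ*, against 0%, 0% and 2.56% in *upf1Δ*. The BG sites together had 20, 19 and 17 reads in *prp18Δupf1Δ*, against 0, 0 and 1 in *upf1Δ*, which is 7.10 ± 0.381% and 0.221 ± 0.382% of spliced reads.

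The 3 other sites end in neither AG nor G and lie close to the branchpoint. UAU at 14 had 5, 0 and 2 reads in *prp18Δupf1Δ* and 3, 2 and 2 in *upf1Δ*. AAU at 18 had 3, 2 and 1 reads in *prp18Δupf1Δ* and 1, 0 and 1 in *upf1Δ*. The libraries overlapped for both sites. UAC at 23 had 1, 0 and 1 reads in *prp18Δupf1Δ*, against 1, 1 and 3 in *upf1Δ*, and its FAnS was lower in every *prp18Δupf1Δ* library. With these few reads the pooled ratio was 0.243 with a counting interval of 0.0231 to 1.48. As a group, the sites ending in U or C took 1.91 ± 1.35% of spliced reads in *prp18Δupf1Δ* and 3.31 ± 0.949% in *upf1Δ*, with overlap. Of the 8 sites, 4 had a FAnS above *upf1Δ* in every *prp18Δupf1Δ* library (UUG, AGG, AUG and AAG at 30), 1 was below and 3 overlapped. Over 562 alternative 3′SS, 35.8% were above and 14.9% below by the same rule, from which nothing is read since *APE2* was picked on this contrast.

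**Figure D2:**
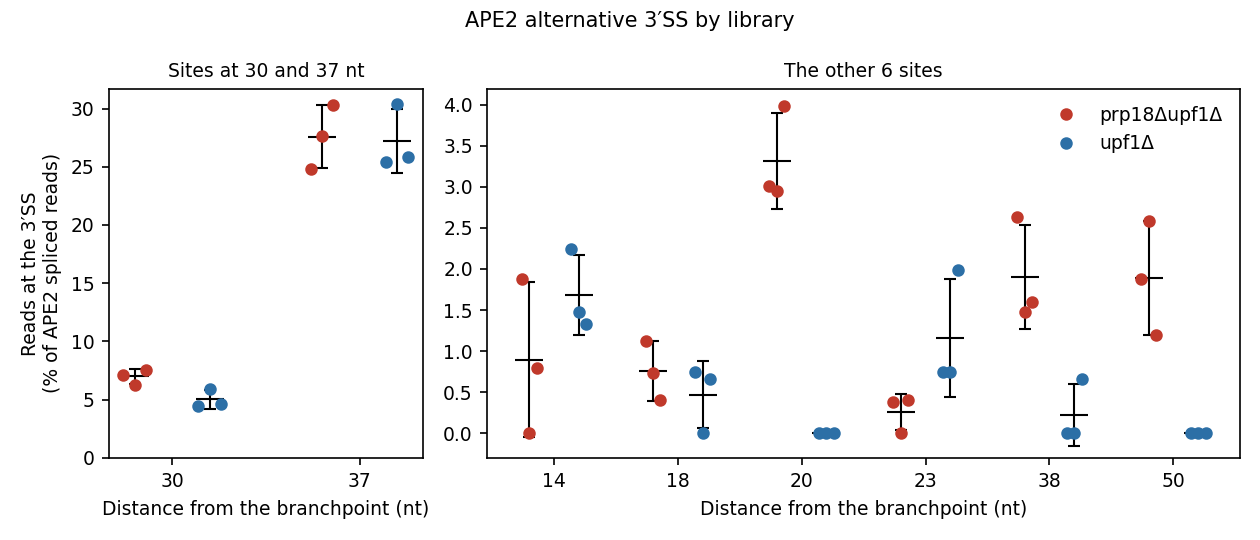
Reads of each *APE2* alternative 3′SS as a percentage of spliced reads (vertical axes, with a separate scale in each panel), by distance from the branchpoint in nt. Points are libraries, and horizontal marks with bars are the mean ± SD of 3 libraries. At 20 and 50 nt all *upf1Δ* points lie at 0, while at 37 nt the strains overlap.

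In *prp18Δupf1Δ* the sites ranked by mean FAnS in the order 37, 30, 20, 38, 50, 14, 18 and 23 nt from the branchpoint. The sites at 37, 30 and 20 nt were each apart from the next in all libraries, and every later neighbour in this order overlapped or met the one before it. In *upf1Δ*, AAG at 37 and AAG at 30 again led, while the next were the site at 14 nt with 2.61 ± 0.687% and the site at 23 nt with 1.80 ± 1.10% FAnS, which overlapped. The 6 non-AG sites took 9.01 ± 1.67% of spliced reads in *prp18Δupf1Δ* and 3.53 ± 1.22% in *upf1Δ*. They include the BG sites, so the filter set this contrast in part as well.

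Most reads of these sites were placed by both aligners. Of the gapped reads at the 6 non-AG sites, 87 of 105 were placed there by BBMap as well as STAR, as were 415 of 520 at the AAG pair and 544 of 870 at the annotated junction. For AGG at 38 this held for 14 of 21 gapped reads and for UUG at 20 for 25 of 29. The other 6 junctions of *APE2*, those with another 5′SS, had 1 read each, all in *prp18Δupf1Δ* libraries. Of these, the 5 with both sites altered were placed by BBMap alone, and none of them passed the quality filters, while the 1 with the annotated 3′SS passed these but not the minimum of reads.

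The choice of sites was compared with the trinucleotides on offer. From 7 nt after the branchpoint to the annotated 3′SS there were 48 other trinucleotides, of which 8 were used. Both upstream AG trinucleotides were used, and the next 50 nt of exon 2 held no AG at all. BG trinucleotides were used at 3 of 4 upstream positions, and the one left, ACG at 34, had 2 reads. Exon 2 offered 5 BG trinucleotides in its first 50 nt, and none had a read. Trinucleotides ending in U were used at 2 of 12 upstream positions and those ending in A or C at 1 of 30. For comparison, 51.4% of 556 alternative 3′SS of other introns lay upstream of the annotated site. Of all 556, upstream and downstream together, 22.7% were YAG sites, a kind that *APE2* does not offer in this window, 22.7% were AAG and 27.5% were BG.

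The sites also differed in their surroundings. The 10 nt before a site held a median of 4 U at the 8 used sites (range 1 to 6) and of 2 U at the 40 other upstream trinucleotides. The used sites near the branchpoint (14 to 23 nt) had 5 or 6 U, but the other trinucleotides between them had 4 to 6. AAG at 37, the leading site, had 1 and the annotated CAG had 2. In folding by ViennaRNA, the predicted probability of being unpaired was 0.768 for the annotated CAG, 0.508 for AAG at 37 and 0.672 for AAG at 30. The median was 0.662 for the used sites (0.281 to 0.975) and 0.842 for the other upstream trinucleotides. The predicted fold held a hairpin from 18 to 35 nt past the branchpoint, which encloses UUG at 20, UAC at 23 and AAG at 30, and, for the annotated CAG, a further one from 37 to 53 nt, which takes in the last base of AAG at 37 and the first of the CAG. For AUG at 50 the further one ran from 41 to 49 nt. With hairpins that end before the last base of a site left out, its distance to the branchpoint was 20 nt in place of 55 for the annotated CAG, 19 in place of 37 for AAG at 37 and 23 in place of 50 for AUG, but stayed at 30 for AAG at 30. These are predictions from sequence, and sites of 1 intron are too few for a test.

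**Figure D3:**
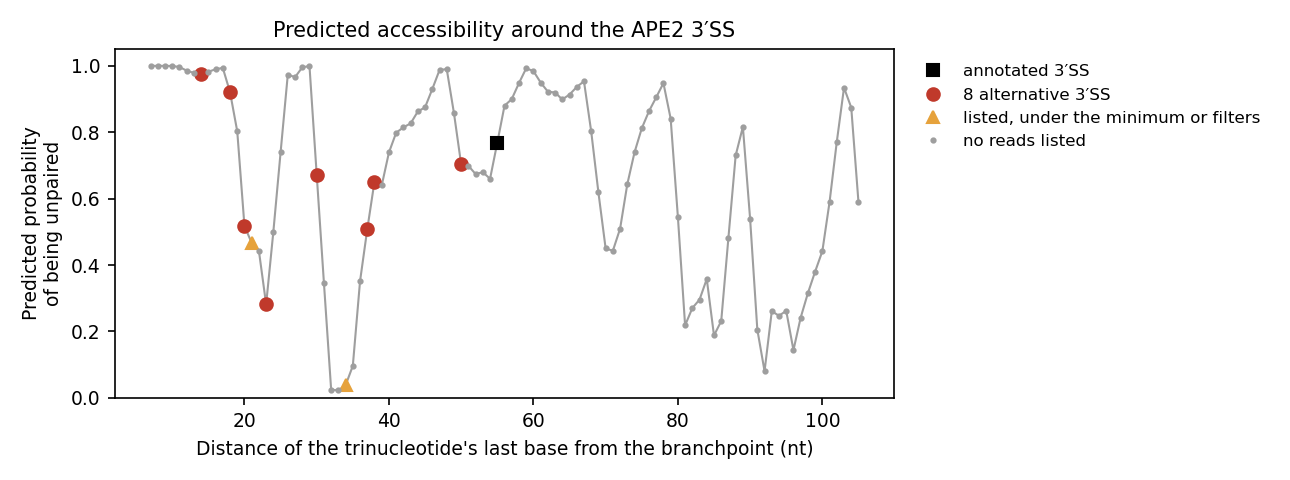
Predicted probability that each trinucleotide is unpaired (vertical axis) by the distance of its last base from the branchpoint in nt. Red circles are the 8 alternative 3′SS, triangles are listed sites that did not pass, and the black square is the annotated 3′SS, at 0.768. Used sites lie at high and low values, and no used site lies beyond the annotated one.

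The products differ in their reading frame. AAG at 37 adds 18 nt and so 6 codons to the mRNA, with the frame kept, which gives 959 codons with the stop in place of 953. Each of the 7 other sites shifts the frame, and the first stop is then met between codons 98 and 115 (codon 99 for AAG at 30). The unspliced mRNA would stop at codon 101. Reads of alternative sites with an early stop were 18.0%, 14.0% and 15.9% of spliced reads in *prp18Δupf1Δ*, against 8.21%, 8.15% and 9.27% in *upf1Δ*. All *prp18Δupf1Δ* libraries were above, with means of 16.0 ± 2.01% and 8.54 ± 0.632% (n = 3 each). The annotated product and the one with 6 added codons together took 84.0 ± 2.01% of spliced reads in *prp18Δupf1Δ* and 91.5 ± 0.632% in *upf1Δ*. The early-stop group holds UUG, AGG and AUG, which passed the minimum only through *prp18Δupf1Δ* reads. These BG sites took 7.10% of spliced reads in *prp18Δupf1Δ* and 0.221% in *upf1Δ*. The filter thus set both contrasts in part, and nothing is read from them. Because neither strain has Upf1p, how much of the early-stop products NMD would remove was not measured.

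*APE2* was poorly spliced in both strains. Unspliced reads, averaged over both splice sites, numbered 309.5, 439 and 412.5 in *prp18Δupf1Δ*, against 114.5, 154.5 and 212 in *upf1Δ*. The annotated splicing efficiency (SE), annotated reads over annotated plus unspliced reads, was 32.9%, 26.5% and 24.7% in *prp18Δupf1Δ*, against 43.7%, 34.9% and 31.6% in *upf1Δ*. Replicate 1 of *prp18Δupf1Δ* was above replicate 3 of *upf1Δ*, so the strains overlapped. By replicate number, a pairing that the labels do not state, SE was lower in *prp18Δupf1Δ* each time, with differences of -10.8, -8.48 and -6.96 points. The means were 28.0 ± 4.35% and 36.8 ± 6.26% (n = 3 each), a log2 ratio of -0.39. The median SE over 272 introns was 81.9% in *prp18Δupf1Δ* and 94.6% in *upf1Δ*, with a median log2 ratio of -0.17, and *APE2* was the 25th lowest in *prp18Δupf1Δ* and the 13th lowest in *upf1Δ*. SE was lower without overlap in 82.7% of these introns, which did not include *APE2*, and higher without overlap in 0.368%.

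More *APE2* RNA was counted without Prp18p. Annotated plus unspliced reads came to 338, 574 and 599 per 1000000 such reads of all introns in *prp18Δupf1Δ*, against 144, 156 and 194 in *upf1Δ*. All *prp18Δupf1Δ* libraries were above, with a ratio of means of 3.06 (log2 1.61), the 11th highest of 272 introns, whose median was 0.08. The other introns of chromosome XI were higher too: all 13 had a log2 ratio above 0 (0.18 to 1.91, median 0.96, or 1.95 times), 10 of them without overlap, while the medians of the 15 other chromosomes lay between -0.21 and 0.39. Set against the geometric mean of those 13 introns in each library, *APE2* was 1.49 times higher (log2 0.58), still above in all *prp18Δupf1Δ* libraries, and it ranked the 3rd of 14 on the chromosome. Why the chromosome moved was not tested. Over all chromosomes, 25.0% of introns were higher without overlap. Every kind of read was higher: the annotated junction at 137 ± 22.3 in *prp18Δupf1Δ* and 59.7 ± 4.41 in *upf1Δ*, the 8 alternative sites at 106 ± 21.8 and 33.1 ± 1.22, and unspliced RNA at 367 ± 122 and 105 ± 26.2. Reads of the annotated junction were 2.30 times higher, those of the alternative sites 3.21 times and unspliced reads 3.49 times. SE, FAnS and the share of spliced reads compare reads of the same transcript, so a common factor on its level cancels in them. The scale is relative to other intron-containing transcripts, and more cells with the RNA and more RNA per cell cannot be told apart in such bulk samples.

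**Figure D4:**
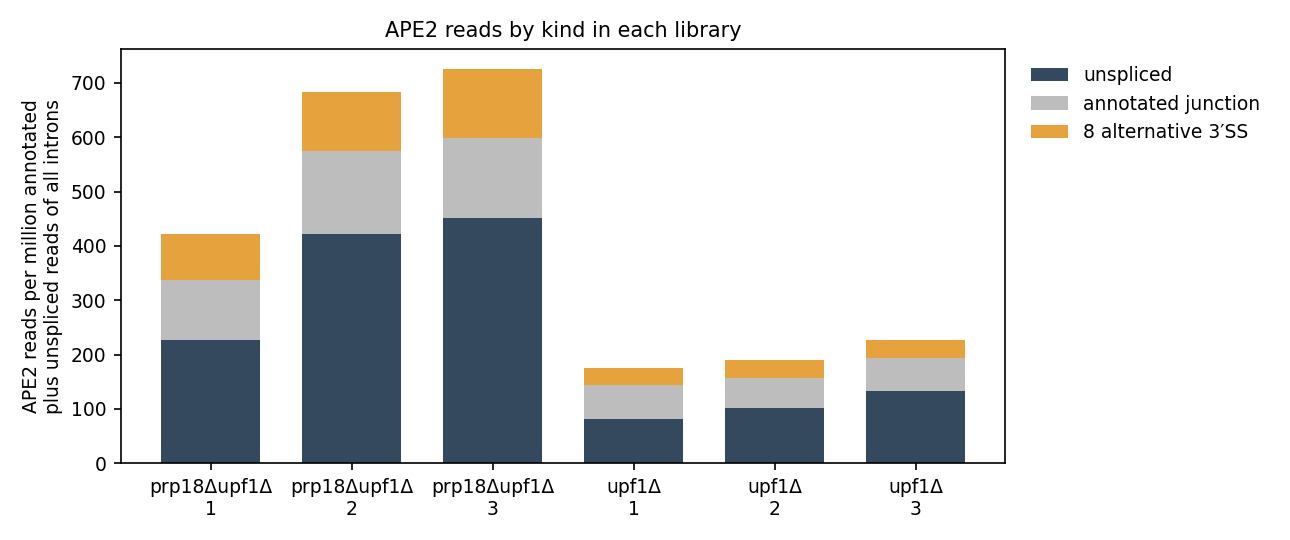
*APE2* reads per 1000000 annotated plus unspliced reads of all introns (vertical axis) in each library, stacked by kind. In *prp18Δupf1Δ* each bar is taller than any *upf1Δ* bar, and unspliced reads are the largest layer in all 6 libraries.

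Against other introns, *APE2* ranked high in number and share of alternative 3′SS. It was picked for its many competing 3′SS, so nothing is read from these ranks. Of 208 introns with a kept alternative 3′SS, with a median of 2 sites, only *RPS21A* (10 sites) and *RPS16A* (9 sites) had more, and 3 others had 8, among them *RPS10A*. *RPS21A*, *RPS16A* and *RPS10A* code for proteins of the small ribosomal subunit, and their alternative share was small, at 0.0916 ± 0.0132% for *RPS21A*, 0.717 ± 0.213% for *RPS16A* and 0.635 ± 0.0993% for *RPS10A* in *prp18Δupf1Δ*, against 0.275 ± 0.046%, 1.16 ± 0.169% and 0.468 ± 0.0499% in *upf1Δ*. Among 226 introns with at least 100 spliced reads in every library, the share of *APE2* ranked 2nd in both strains. The median share there was 0.234% in *prp18Δupf1Δ* and 0.0937% in *upf1Δ*. This rank rests on the depth asked for. Several introns below that limit had higher shares, some of them far higher. In *prp18Δupf1Δ* they included *SPT14* (90.1%), *YCL002C* (80.5%), *RAD14* (56.1%) and *MCR1* (50.1%). In *upf1Δ* they included *REC102* (41.0%) and *USV1* (37.1%). On the log2 scale the change in share was 0.29, the 132nd from the highest of 195 introns, whose median was 0.94. In points, the change of 7.86 was the 30th highest of 206 introns, whose median was 0.226.

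Among these 226 introns, those most like *APE2* by their share, measured as the mean absolute difference over the 6 libraries, were those of *TAN1*, a tRNA acetylation factor (7.31 points), *SEC14*, a phosphatidylinositol transfer protein (18.4 points), and *VPS75*, a histone chaperone (21.1 points). With a minimum of 10 or 1 spliced reads, an alternative chosen after seeing the data, they were *MCR1*, also on chromosome XI (5.26 points), *TAN1* and *USV1* (7.58 points), so the order rests on the depth asked for. The *TAN1* share was 39.1 ± 2.32% in *prp18Δupf1Δ* and 25.6 ± 2.24% in *upf1Δ*, from 3 sites. For *SEC14* it was 35.3 ± 1.25% in *prp18Δupf1Δ* and 7.31 ± 1.27% in *upf1Δ*. For *VPS75* it was 23.3 ± 1.77% in *prp18Δupf1Δ* and 13.9 ± 1.04% in *upf1Δ*. Of 22 genes on a list of peptidases, *PRE3*, a catalytic subunit of the proteasome, was the only one in the tables. It also had 8 alternative 3′SS, and its share was 14.2 ± 1.53% in *prp18Δupf1Δ* and 1.35 ± 0.0663% in *upf1Δ*. In *PRE3*, 88.1% of alternative reads used the leading site, as did 67.1% in *APE2*.

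**Figure D5:**
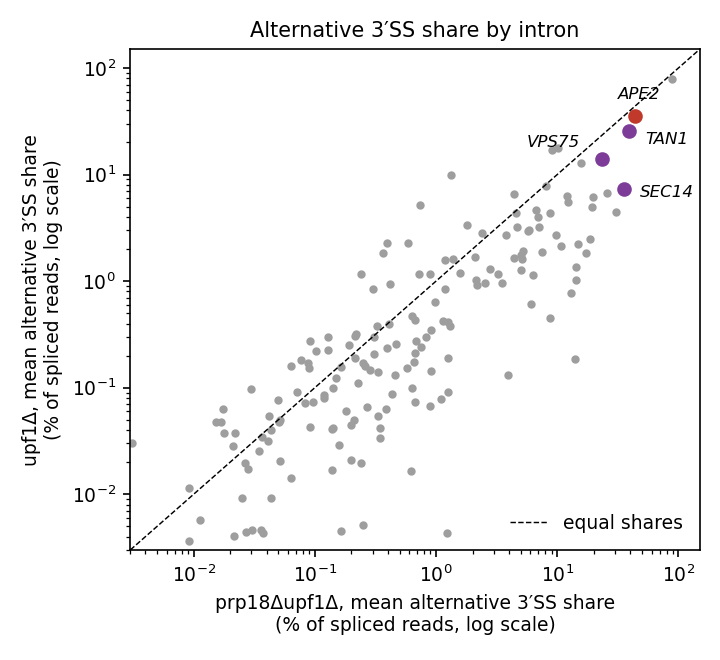
Mean share of spliced reads at alternative 3′SS in *prp18Δupf1Δ* (horizontal axis) and *upf1Δ* (vertical axis), both in % on a log scale, for 170 introns with at least 100 spliced reads in every library. The 56 introns with a share of 0 in a strain are not drawn. *APE2*, at 43.6% and 35.7%, lies closer to the line of equal shares than *TAN1*, *SEC14* and *VPS75*.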

How the data were processed

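Per the submitters' processing notes and the methods, the authors used cutadapt 1.18 for trimming, and for each read took whichever of its BBMap and STAR 2.7.0d alignments to R64 scored better. The libraries were stranded. The deposited junction reads are raw counts per library, made by the authors from read pairs counted once at a junction. The unspliced reads deposited are an estimated count, the mean over the 5′SS and the 3′SS. The SE of annotated junctions deposited by the authors is a fraction, and their FAnS and SE of alternative junctions are each a ratio. SE and FAnS followed from the counts in 51 of 51 *APE2* entries, and the splice sites of 17 of 17 *APE2* junctions matched R64.

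Values were derived from these counts in pandas 2.3.3 and numpy 2.4.6 (python 3.11.15), intervals in scipy 1.17.1 and plots in matplotlib 3.10.9, with folding by ViennaRNA 2.7.2 and scaling factors from edgeR 4.0.16 in R 4.3.3. Kept junctions had at least 10 bp upstream and 40 bp downstream aligned without error in some read, at least 50% of reads without mismatch within 10 bp, and at least 6 gapped reads over the 6 libraries. Comparisons of SE and transcript level over introns used those with at least 10 annotated plus unspliced reads in all and 1 in every library. Those of the alternative share used introns with a kept alternative 3′SS and spliced reads in every library, or the minimum of spliced reads stated. Those of FAnS used kept alternative 3′SS whose intron had annotated reads in every library. *APE2* and the lists were chosen with earlier results of these data known. Other genes named are the 3 with the most kept alternative 3′SS (ties by reads), the 3 nearest in share, and peptidases of a list. Whether replicates came from separate cultures is not given in the sources used here. Deviations over introns correlated at 0.58, 0.31 and 0.38 between same-numbered libraries, and 4 of 6 libraries correlated best with their own number. However, *prp18Δupf1Δ* 2 with *upf1Δ* 3 reached 0.33, and *prp18Δupf1Δ* 3 with *upf1Δ* 2 reached 0.37. The data thus set replicate 1 of both strains apart but do not show how replicates 2 and 3 pair, and the labels state no pairing. Alternatives tried were other filters, minimums, denominators, scalings, pairing and leaving out libraries.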

Additional observations from a re-analysis of the deposited data

How the results depend on the processing

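Log2 ratios of *prp18Δupf1Δ* over *upf1Δ* are given. Annotated SE was -0.39, and -0.22 with all kept junctions counted as spliced. The alternative share was 0.29, and 0.085 over annotated plus unspliced reads in place of spliced reads. The number of alternative 3′SS, 8, was 9 with a minimum of 1 read and 5 with a minimum of 20. Leaving out each library in turn gave -0.52 to -0.25 for SE, 0.24 to 0.34 for the share and 1.47 to 1.83 for the transcript level. Without replicate 1 of both strains, which stood apart, these were -0.38, 0.26 and 1.74, and the number of sites above in every library, chosen as an alternative after seeing the data, was 4 as before. With the replicate block, the pairing by number, the share was 0.29, SE -0.39 and the level 1.58 (main 1.61), where the blocks for SE and the level were also chosen after seeing the data. The level was 1.55 with TMM factors, 1.49 with median-of-ratios factors and 0.58 over the other introns of its chromosome, chosen after seeing the data.

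For the 6 single sites with a log2 ratio, all 41 alternatives kept the sign. UUG and AUG, with no *upf1Δ* read, had no ratio and were not among them. AGG at 38 was 2.05 with a pseudocount of 0.5 (main 3.31), and gave no ratio without *upf1Δ* replicate 3, which held its only *upf1Δ* read. UAU at 14 ran from -1.82 to -0.13 with a library left out. Other ranges were 0.57 to 0.84 for AAG at 30, 0.10 to 0.33 for AAG at 37, 0.31 to 1.38 for AAU, 2.72 to 3.48 for AGG and -2.45 to -1.32 for UAC. SE from reads across the unspliced 5′SS or 3′SS alone was not run, since the counts used here hold their mean. Depth limits every site under about 10 reads per strain, where counts of 0 to 3 cannot be ordered.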
